A study of Homo sapiens with 43 samples.

Results

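This account describes 53 genes of the cell division cycle and of DNA replication in cultured human cancer cells, listed by name for their textbook roles, with earlier results of these data known. All 53 are among the 18075 genes listed for both cell lines of the study. They were placed in 3 classes by textbook role: 25 genes of the G1/S transition, 23 genes of G2 and mitosis (G2/M), and 5 early G1 genes, the D cyclins with their kinases. RNA was sequenced from 2 established lines, H2087 of lung cancer and HCC1954 of ERBB2-amplified breast cancer. For each line the unselected parental cells were compared with latency-competent derivatives (LCC), which had been recovered from organs labelled BLI-negative (of mice, per the HCC1954 labels) and were then kept as cell lines. Every culture was subconfluent and had grown for 48 h in a mitogen-rich medium (MRM) or a mitogen-low medium (MLM). The labels used here give neither the mouse strain nor the organ.

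H2087 gave 2 parental libraries and 1 library of each of 6 derivatives, LCC1 to LCC6, in each medium. HCC1954 gave 3 parental libraries and 2 libraries of each of 2 derivatives, LCC1 and LCC2, in each medium. The H2087 parental sample numbered 3 in MLM was not analysed here. Nothing in the labels says that libraries of one group came from separate cultures, so the p-values below measure the spread between these libraries, which may be technical. HCC1954 libraries of 1 derivative are repeats of that derivative, not separate derivatives. Because whole cultures were sequenced, fewer cycling cells and less RNA per cycling cell cannot be told apart.

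Mitogens act on the cell cycle through the D cyclins, which activate CDK4 and CDK6 and so release E2F transcription factors from the retinoblastoma proteins. E2F then drives the genes of the G1/S transition: cyclin E, the proteins that license and fire replication origins, the replication fork, and the enzymes that supply nucleotides. Later in the cycle a different set of genes is driven by MYBL2 (B-Myb) and FOXM1, and it encodes cyclins A and B, CDK1, the mitotic kinases, the spindle checkpoint and the motor proteins of the spindle. A cell that leaves the cycle lowers both sets, whereas a delay in one phase can move one set more than the other. The comparisons below ask whether the derivatives held these genes lower than parental cells, and whether a medium poor in mitogens lowered them.

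The G1/S and G2/M classes also differ in letters of their promoters. The choice of members did not read these letters. Their textbook roles include control through such elements, so the difference is no independent support for the classes. RefSeq promoters of build GRCh38.p14, covering 250 bases before to 50 bases after the transcription start, were matched to 41 of the 53 members: 20 G1/S, 18 G2/M and 3 early G1 genes. Of the 20 G1/S promoters, 14 (70%) held an E2F string (TTTCCCGC, TTTCGCGC, TTTGCCGC or TTTGGCGC, on either strand), against 2 of 18 G2/M promoters (11.1%) and 3.33% of all 27305 promoters of the table. The order was turned round for the cell cycle homology region (CHR, TTTGAA on either strand), which was present in 11 of 18 G2/M promoters (61.1%), in 1 of 20 G1/S promoters (5%) and in 15.4% of all promoters. The CCAAT box (CCAAT on either strand) was found in 15 of 18 G2/M promoters (83.3%), 14 of 20 G1/S promoters (70%) and 35.7% of all promoters. None of the 3 early G1 promoters held any of these strings. A match describes the letters in this window and does not show that a factor binds there.

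The 100 bases just before the start are printed 5′ to 3′ on the gene's own strand for 4 G1/S genes whose values recur below, with E2F strings and CCAAT boxes in capitals. In MCM6 the run TTTGGCGCGAAA holds 2 overlapping E2F strings, TTTGGCGC and the reverse complement of TTTCGCGC.
MCM6 (chr2:135876444-135876543, minus strand): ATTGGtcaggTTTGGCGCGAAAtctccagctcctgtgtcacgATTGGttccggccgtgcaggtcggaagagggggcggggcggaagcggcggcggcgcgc
CDT1 (chr16:88803689-88803788, plus strand): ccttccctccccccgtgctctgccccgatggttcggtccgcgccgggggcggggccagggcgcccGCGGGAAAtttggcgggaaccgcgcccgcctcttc
PCNA (chr20:5126623-5126722, minus strand): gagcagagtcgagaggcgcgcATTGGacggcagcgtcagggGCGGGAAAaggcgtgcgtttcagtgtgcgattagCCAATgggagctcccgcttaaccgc
E2F1 (chr20:33686386-33686485, minus strand): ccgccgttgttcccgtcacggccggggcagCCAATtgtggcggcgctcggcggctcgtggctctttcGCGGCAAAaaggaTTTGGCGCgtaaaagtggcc

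For 5 G2/M genes the same stretch is shown with CHR strings and CCAAT boxes in capitals. In all 5 a CCAAT box accompanies the CHR, and in MKI67 the run TTTGAATTGG is a CHR that overlaps an inverted CCAAT box.
PLK1 (chr16:23678789-23678888, plus strand): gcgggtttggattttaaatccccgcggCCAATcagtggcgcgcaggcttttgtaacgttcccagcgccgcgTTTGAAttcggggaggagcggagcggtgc
CCNB2 (chr15:59105046-59105145, plus strand): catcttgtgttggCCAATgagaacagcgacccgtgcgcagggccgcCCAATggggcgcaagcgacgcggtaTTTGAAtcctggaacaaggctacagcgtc
KIF23 (chr15:69414249-69414348, plus strand): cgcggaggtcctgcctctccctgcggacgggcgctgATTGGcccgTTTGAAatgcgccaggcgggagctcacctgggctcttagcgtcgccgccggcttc
CDC20 (chr1:43358881-43358980, plus strand): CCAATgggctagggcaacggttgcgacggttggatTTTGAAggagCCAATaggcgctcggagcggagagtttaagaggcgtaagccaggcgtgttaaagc
MKI67 (chr10:128126424-128126523, minus strand): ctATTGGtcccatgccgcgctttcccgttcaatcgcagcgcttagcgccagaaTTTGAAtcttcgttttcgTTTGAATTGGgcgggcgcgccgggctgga

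Depth and cell identity were checked first, over all libraries. The 30 libraries held 44649263 to 55653300 counted reads for H2087 in MLM, 12131848 to 20847987 for H2087 in MRM, 24852118 to 28119596 for HCC1954 in MLM and 28799407 to 44705518 for HCC1954 in MRM, so within each line medium and depth moved together and cannot be told apart. ERBB2 ranged from 119990 to 307480 normalized counts in HCC1954 and from 246 to 4611 in H2087, and H2087 held the epithelial genes KRT7 (10147 to 54260) and EPCAM (2750 to 35191). Of 8 lung identity genes 7 were listed; in H2087 the surfactant gene SFTPB reached 3716 and FOXA2 1532, while SFTPC did not exceed 2.05. Fibroblast markers, a list of 8 genes, summed to 276 to 1087 in H2087 and 466 to 1117 in HCC1954. COL1A1 made up most of this at the median (441 and 752), PDGFRA reached 427 in H2087, and DCN had a median of 0 in both lines. The part of such cells in the results was not tested.

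Some libraries stood apart from their groups or went against their labels. Pairs were compared by the chi-square of their read counts over all genes, divided by its degrees of freedom. HCC1954 parental library 3 in MLM gave 62.9 and 63.1 against parental libraries 1 and 2, which gave 7.57 against each other. The HCC1954 LCC1 pair in MRM gave 115.5 and the LCC2 pair 2.1. Against the 2 LCC2 libraries in MRM the second LCC1 library gave 208 and 229.3, and the first gave 113.5 and 127.7. The second also had the higher mean over the members, a value under study here. In H2087 the LCC5 and LCC6 libraries in MRM gave 6.93, while other pairs of derivatives in that medium gave 25.9 to 110.9 and LCC5 and LCC6 in MLM gave 55.7. The deviations of LCC6 in MLM from its group mean still matched those of LCC6 in MRM best among the derivatives, with a correlation of 0.415 across genes, beside 0.683 to 0.773 for the other derivatives. The label of LCC6 in MRM is in doubt, and that sample is called the library labelled LCC6. Counts in the comparisons that these libraries enter are also given without them.

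The libraries of each line were ranked by the mean of log2(value + 1) over all 53 members. In H2087 the 2 parental libraries in MRM were the lowest of 16, at 11.33 and 11.44, and 5 of the 6 derivative libraries in MLM took the highest 5 places, from 11.85 (LCC1) to 11.78 (LCC6). LCC2 in MLM, at 11.59, stood in place 13. In HCC1954 the lowest 2 of 14 libraries were both of LCC2 in MLM, at 10.88 and 10.96, followed by parental libraries 2 and 1 in MLM at 11.09 and 11.14. The highest 2 were the libraries that stood apart, the second LCC1 library in MRM at 12.01 and parental library 3 in MLM at 11.88.

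For the 23 G2/M members of H2087, all 4 parental libraries lay below all 12 derivative libraries in the deposited normalized counts. Parental cells had 11.99 ± 0.02 in MRM and 12.09 ± 0.00 in MLM (SD, n = 2). Derivatives had 12.21 ± 0.05 in MRM and 12.26 ± 0.05 in MLM (SD, n = 6). The gap was narrow, from 12.089 (parental library 2 in MLM) to 12.108 (LCC1 in MRM). These libraries summed to 27528100 and 30532000 normalized counts, so equal library totals would raise the former against the latter. The separation is therefore given for the deposited scaling only. For the 25 G1/S members of H2087 the groups overlapped: parental cells had 11.03 ± 0.16 in MRM and 11.53 ± 0.02 in MLM, and derivatives 11.29 ± 0.11 in MRM and 11.53 ± 0.14 in MLM. In HCC1954 the G2/M means of the 7 MRM libraries, from 12.20 to 12.39, all exceeded those of the 7 MLM libraries, which ran from 11.06 to 11.99. The G1/S means of HCC1954 did not separate the media, since parental library 3 in MLM had the highest of all, 12.11, beside 11.08 for each of parental libraries 1 and 2. These means carry no test, because the members were named as a list with earlier results of these data known.

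**Figure D1:**
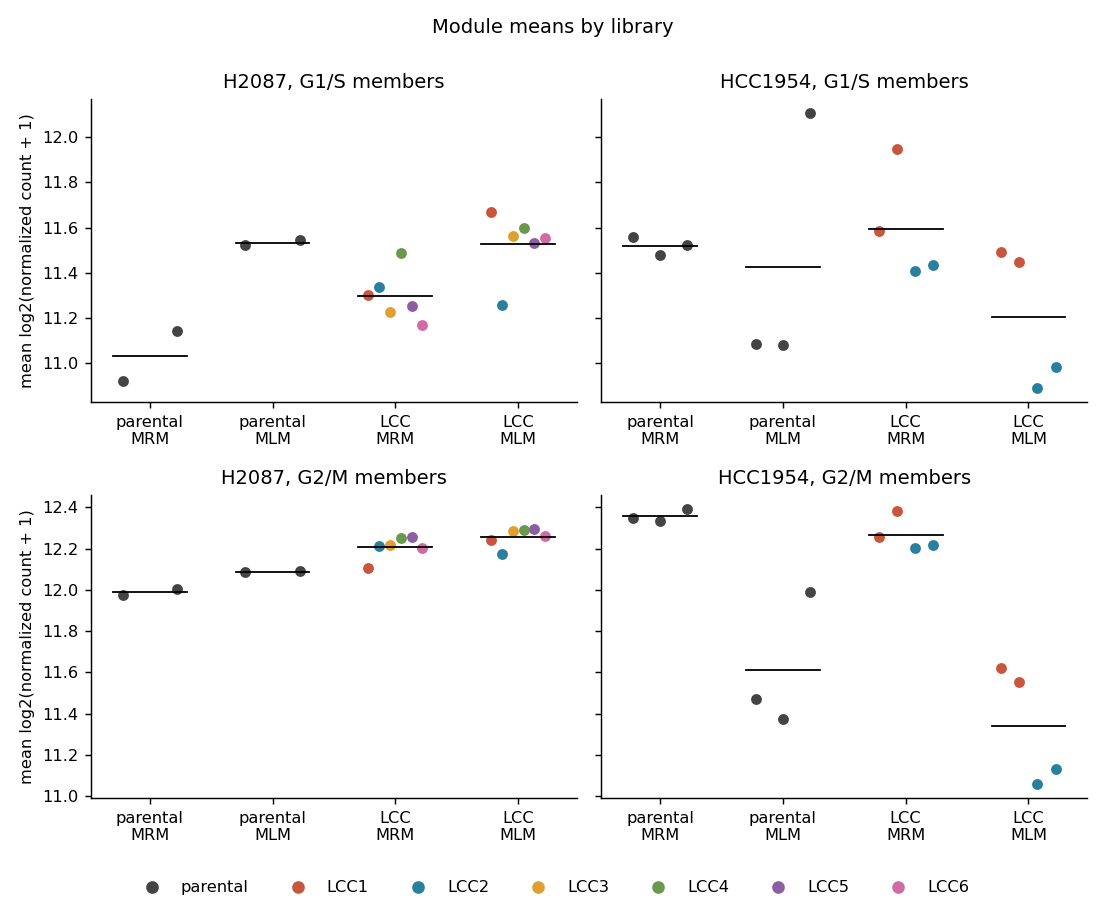
Mean of log2(normalized count + 1) over the 25 G1/S members and the 23 G2/M members in each of 30 libraries, by line, cell kind and medium, with 1 point per library. In H2087 the G2/M means of the parental libraries lie below those of all derivative libraries, by a narrow gap and in the deposited scaling only. In HCC1954 the G2/M means in MLM lie below those in MRM, and parental library 3 in MLM lies above its group.

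The medium was examined first in H2087 parental cells. Members of the G1/S class and the D cyclin class were higher in MLM than in MRM, while the G2/M class was split. Of the 52 members with a mean of at least 10, 33 rose in MLM and 6 fell (limma, Benjamini-Hochberg adjusted p under 0.05 over all genes). The background was wide: 38.2% of all genes tested rose and 34.4% fell in this comparison. The members' median difference was 0.35 on the log2 scale, against 0.03 for all genes. By class, 18 of 25 G1/S members rose and 1 fell (median 0.48), 11 of 23 G2/M members rose and 5 fell (median 0.01), and all 4 early G1 members tested rose.

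Cyclin D1 (CCND1), the mitogen-responsive partner of CDK4 and CDK6, showed the largest difference. It had 24118 and 24513 normalized counts in MLM and 9106 and 9708 in MRM, a 2.59-fold difference (log2 1.37 ± 0.05 SE, limma adjusted p = 5.11e-07). CCNE2, a cyclin E that activates CDK2 for S phase entry, had 1230 and 1194 in MLM against 411 and 546 in MRM (1.35 ± 0.12, adjusted p = 4.27e-05). In both genes the MLM and MRM libraries were far apart and did not overlap. CCNE1, the other cyclin E, had 157 and 149 against 63 and 64, and it rose by 1.26 ± 0.14. RRM2, the S phase subunit of ribonucleotide reductase, had 10920 and 11039 against 4483 and 5506 (1.14 ± 0.09, adjusted p = 1.72e-05).

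Among the licensing genes, which load the MCM helicase onto origins in G1, 7 of 8 rose. CDC6, a loader of that helicase, had 2610 and 2624 in MLM against 1321 and 1420 in MRM (0.93 ± 0.05, adjusted p = 3.48e-06). CDT1, its partner in loading, differed by 0.78 and MCM4 by 0.70, whereas MCM2 differed by only 0.09 ± 0.06 and was not called. GINS2, part of the active helicase, and UHRF1, which copies DNA methylation behind the fork, rose by 0.83 and 0.80. RRM1, the large ribonucleotide reductase subunit, was the only G1/S member that fell, with 6251 and 6371 in MLM and 8717 and 9200 in MRM (fell by 0.50, SE 0.04, adjusted p = 3.24e-05). In the fit of all 4 H2087 groups RRM1 was not called (adjusted p = 0.171).

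In the G2/M class the transcription factor FOXM1 rose most, with 5830 and 6012 against 3723 and 4209 (0.58 ± 0.06, adjusted p = 9.77e-05). CDC20, the activator of the anaphase-promoting complex, rose by 0.47, the spindle motor KIF11 by 0.44, and CDK1, the mitotic kinase, by 0.41 ± 0.04. CDC25C, the phosphatase that activates CDK1, went the other way: 784 and 782 in MLM, 1412 and 1276 in MRM (fell by 0.78, SE 0.06, adjusted p = 2.69e-05). Smaller falls were called for TTK (-0.24), BUB1 (-0.13), CENPE (-0.12) and TPX2 (-0.12), genes of the spindle checkpoint and spindle. Under equal library totals BUB1 and CENPE were no longer called, with adjusted p = 0.178 and 0.257, and in the fit of all 4 groups TTK was not (0.115). MKI67, the proliferation marker Ki-67, was at 13675 and 12760 in MLM and 13808 and 13355 in MRM, a difference of -0.04 ± 0.05 with overlapping groups. The spread rests on 2 libraries in each group.

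Markers of other cells and genes of lung identity moved with the medium in the same H2087 parental libraries. The fibroblast markers summed to 322.5 and 371 in MLM and to 1035 and 1087 in MRM, and 3 of 3 tested were lower in MLM (median -1.84). Of the lung identity genes 4 of 5 tested were lower and 1 higher (median -1.05). Over all genes 34.4% were lower and 38.2% higher. In the derivatives 1 of 3 fibroblast markers and 3 of 5 lung genes were lower in MLM, beside 16.7% of all genes. Fibroblast sums there were 276 to 686 in MLM and 475 to 957 in MRM. In HCC1954 limma called none of the fibroblast and lung markers between media. Of the endothelial markers 3 of 5 tested were higher in MLM and 1 lower in its parental cells, beside 25.5% and 20.9% of all genes. In its derivatives 1 of 5 was higher and 0 lower, beside 6.36% and 5.52%. Of blood markers 1 of 1 tested was higher and of kidney markers 1 of 3 lower in HCC1954 parental cells. Their part in the results on the medium was not tested.

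The H2087 derivatives, compared between the same media, showed fewer calls. Of 52 members 13 (25%) rose in MLM, with 15.9% of all genes rising, and the members' median was 0.12 against 0.01. With limma 0 fell, against 16.7% of all genes; 3 members were lower at an unadjusted p under 0.05, edgeR called 0 lower and DESeq2 called 2. The called members were 7 of 25 G1/S genes, 4 of 23 G2/M genes, and CCND1 and CCND3 of the early G1 genes.

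CCNE2 had 1439, 1071, 1492, 1176, 1544 and 1469 normalized counts in LCC1 to LCC6 in MLM, and 622, 834, 726, 918, 780 and 706 in MRM (0.83 ± 0.11, adjusted p = 0.000177). Each derivative held more CCNE2 in MLM, and the groups did not overlap. FOXM1 ran from 6762 to 8566 with a median of 7523 in MLM, and from 4502 to 5434 with a median of 4957 in MRM, again without overlap (0.61 ± 0.07, adjusted p = 4.07e-05). CCND3, a D cyclin, rose by 0.79 ± 0.10 and RRM2 by 0.68 ± 0.09. For GINS2 and GINS1, both of the helicase complex, the rises were 0.51 and 0.49, and for TYMS, which makes thymidylate, 0.50. Smaller rises were called for MYBL2 (0.35), CCND1 (0.31), CDK1 (0.30), CDT1 (0.27), BIRC5 (survivin, 0.24) and KIF11 (0.23). MKI67 differed by 0.01 ± 0.10 and CCNB1 by -0.08 ± 0.06, neither called.

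Since each derivative was grown in both media, the derivative can be entered as a block. This block pairs LCC6 in MLM with the library labelled LCC6 in MRM, whose label is in doubt, and it was not run without that pair. With this replicate block 18 members rose and 4 fell, beside 24.4% and 24.5% of all genes. Among the members followed singly, BUB1B, the checkpoint kinase BUBR1, joined those that fell, at -0.34 with a limma adjusted p of 0.0113 in place of 0.103. BUB1B had 2054 in LCC6 in MLM and 3719 in the library labelled LCC6 in MRM, so its call in the block includes the doubtful pair. Without LCC5 and LCC6, 5 members rose, against 4.75% of all genes (9.02% fell), and the members' median was 0.09; CCND1 was then not called (0.26, adjusted p = 0.22). Equal library totals gave 25 rises, with 25.9% of all genes higher and 13.4% lower.

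**Figure D2:**
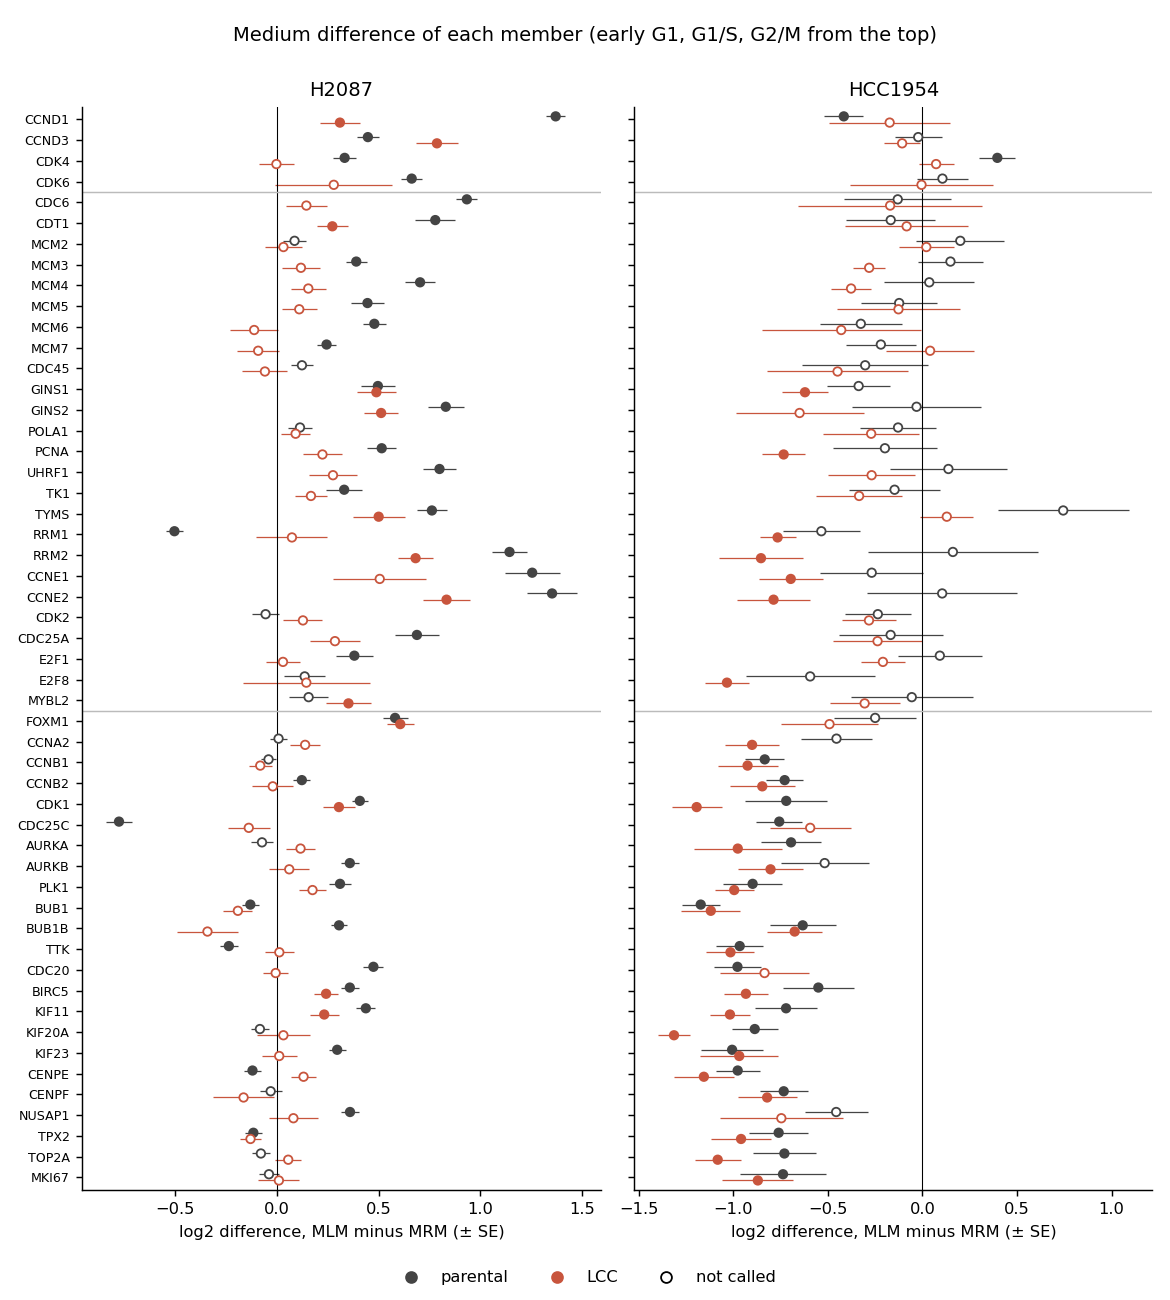
Difference between MLM and MRM (log2, MLM minus MRM, with its standard error) for each tested member in parental cells and in derivatives of each line, ordered by class. H2087 points lie mostly above 0 for G1/S members, as for CCND1 (1.37 in parental cells, 0.31 in derivatives); HCC1954 points lie below 0 for all G2/M members but no such shift is called for G1/S members of its parental cells.

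Whether the effect of the medium differed between parental cells and derivatives was tested as an interaction, which is the same number as the difference of the LCC effect between media. In H2087 it was called for 5 members, 4 negative and 1 positive, with 6.64% and 4.08% of all genes called; the members' median was -0.17 against -0.02. A negative value means that the derivatives exceeded parental cells by less in MLM than in MRM. CCND1 had the largest value, -1.06 ± 0.18 (adjusted p = 0.00256): derivatives ran from 26248 to 29955 in MLM and from 18999 to 29191 in MRM, so the 2 media overlapped in derivatives and did not in parental cells. CDC6 followed at -0.79 ± 0.19 (adjusted p = 0.0146), with derivatives at 1954 to 2961 in MLM and 2149 to 2777 in MRM.

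CDC20 gave -0.48 ± 0.12 (adjusted p = 0.0158), from 7659 and 7992 in MLM and 5437 and 5835 in MRM for parental cells, and 6114 to 7229 in MLM and 5966 to 7348 in MRM for derivatives. MCM4, a helicase subunit, gave -0.55 ± 0.17 (adjusted p = 0.0484), while the 20 genes nearest to it on the chromosome had a median of -0.94. CDC25C was the positive case, 0.64 ± 0.19 (adjusted p = 0.0488), since it fell in parental cells in MLM while derivatives held 877 to 1210 in MLM and 934 to 1306 in MRM. MCM4 and CDC25C were near the threshold and were lost when low genes were kept in the adjustment (adjusted p = 0.0583 and 0.0559). Without LCC5 and LCC6, 3 members were negative and 1 positive, beside 5.48% and 2.6% of all genes: CDC20 (-0.45, adjusted p = 0.0708) and MCM4 (-0.64, adjusted p = 0.0646) were lost and BUB1B (-0.56, adjusted p = 0.0445) was gained. With derivatives as blocks, and parental libraries blocked by number, 8 members were negative and 2 positive, beside 15.8% and 11.5% of all genes. BUB1B (-0.65, limma adjusted p = 0.0171) was among the negative ones, in blocks that again pair the library labelled LCC6 in MRM with LCC6 in MLM. For genes outside the calls, 95% intervals, which are not adjusted for the number of genes, were -0.84 to -0.17 for CDT1 (limma adjusted p = 0.0519), -0.35 to 0.45 for MKI67 and -0.25 to 0.30 for FOXM1. Leaving out parental library 1 or 2 in MLM or 1 in MRM left 1 negative call each.

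Derivatives were compared with parental cells within each medium. These comparisons share libraries with those between media, so their values stand side by side and are not independent. In MLM, 1 member was higher in H2087 derivatives and limma called 0 lower; 3 were lower at an unadjusted p under 0.05, edgeR called 1 lower and DESeq2 called 2. On the higher side there were 12 members at an unadjusted p under 0.05, 0 with edgeR and 7 with DESeq2, which called 10% of all genes higher and 13.3% lower. Without LCC2 limma called 8 higher and without LCC6 it called 6, whereas without any other single library it called 0. The higher member was FOXM1, with 5830 and 6012 in parental cells and 8053, 6930, 8566, 7730, 7317 and 6762 in LCC1 to LCC6, every derivative above both parental libraries (0.35 ± 0.09, adjusted p = 0.0455). Background shares were 4.94% of genes higher and 8.77% lower. The call was lost with edgeR (adjusted p = 0.0623), without the filter on low values (0.0525) and under equal library totals (0.0863).

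The remaining members in MLM stayed short of the threshold, and 39 of 52 values were positive. Their median was 0.12 against 0.01 for all genes, 0.19 for G2/M and 0.05 for G1/S members. CCNA2, the cyclin of S phase and early mitosis, differed by 0.34 ± 0.10 (adjusted p = 0.056) and was called by DESeq2 (0.00979) and in the fit of all 4 groups (0.0324). CCNE1 differed by -0.56 ± 0.18 (adjusted p = 0.073). MKI67 was at 13422 to 15794 in derivatives against 12760 and 13675 in parental cells, 0.17 with a 95% interval of 0.00 to 0.34 and an adjusted p of 0.166. For CCNB1 the interval was 0.01 to 0.38, for CDK1 -0.11 to 0.36, and for CDC6 -0.33 to 0.35. A fall in the derivatives larger than 0.33 thus lies outside the intervals of these 4 genes, which do not bound the other members. MCM6 had 2874 to 4453 in derivatives against 4544 and 4557 in parental cells, and was not called. Among 43 other G1/S genes outside the members 3 (6.98%) were lower and 0 higher, beside 8.77% and 4.94% of all genes. GINS4 was at -0.91 (limma adjusted p = 0.0115). Of 44 other G2/M genes 3 (6.82%) were higher and 0 lower.

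In MRM, 14 of 52 members were higher in H2087 derivatives, with 8.76% of all genes higher, and the members' median was 0.25 against -0.00. Limma, edgeR and DESeq2 each called 0 lower, against 5.83% of all genes with limma, and 1 member was lower at an unadjusted p under 0.05. By class, 8 of 25 G1/S members, 5 of 23 G2/M members and CCND1 rose. CCND1 had 9106 and 9708 in parental cells and 22231, 29191, 19183, 25825, 22240 and 18999 in LCC1 to LCC6, 2.41-fold higher (1.27 ± 0.17, adjusted p = 0.0028). CDC6 had 1321 and 1420 against 2149 to 2777 (0.80 ± 0.10, adjusted p = 0.0028). Both genes had every derivative above both parental libraries.

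Further G1/S members that rose in MRM were CCNE2 (0.68), CDT1 (0.63), RRM2 (0.55), thymidine kinase TK1 (0.50), MCM5 (0.46), the sliding clamp PCNA (0.39) and GINS2 (0.38). The G2/M members that rose were BUB1B (0.79 ± 0.11), the midzone motor KIF23 (0.69 ± 0.08), NUSAP1, which bundles spindle microtubules (0.59 ± 0.10), cyclin B2 (CCNB2, 0.49 ± 0.09) and FOXM1 (0.32 ± 0.09). FOXM1 was not called without the low filter (adjusted p = 0.0523), under equal library totals (0.123), with edgeR (0.0525) or without LCC5 and LCC6 (0.0712). MCM2 (0.34, adjusted p = 0.0585), CCNB1 (0.24, adjusted p = 0.0598) and MKI67 (0.12 ± 0.16) were not called. DESeq2 called 23 members higher, with 12.8% of all genes higher and 9% lower. Fibroblast markers summed to 475 to 957 in these derivatives and 1035 and 1087 in parental cells, with 0 of 3 called. The comparison rests on 2 parental libraries: without parental library 1 the count was 1, and without parental library 2 it was 4. Without LCC5 the count was 9, and without LCC5 and LCC6 it was 10, with 5.64% of all genes higher and 3.14% lower.

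BUB1B, NUSAP1, CCNB2 and KIF23 all lie on chromosome 15, and their neighbours moved with them. In the MRM comparison the 20 nearest genes had a median of 0.97 around BUB1B, 0.69 around NUSAP1, 0.46 around CCNB2 and 0.35 around KIF23. In LCC6 in MLM these 4 members were below the median of the derivatives by -0.89, -0.70, -0.49 and -0.43, and their neighbours by -0.72, -0.79, -0.40 and -0.47. The library labelled LCC6 in MRM did not show this, with -0.23, -0.14, -0.11 and -0.12 for the members and -0.12, -0.09, -0.11 and -0.08 for the neighbours. BUB1B itself had 2054 in LCC6 in MLM beside 3212 to 4067 in the other derivatives, and 3719 in the library labelled LCC6 in MRM. Of the 5 G2/M members that rose in MRM, FOXM1, whose call was lost in the alternatives above, is the one on another chromosome (12). Copy number was not measured, and its part was not tested.

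**Figure D3:**
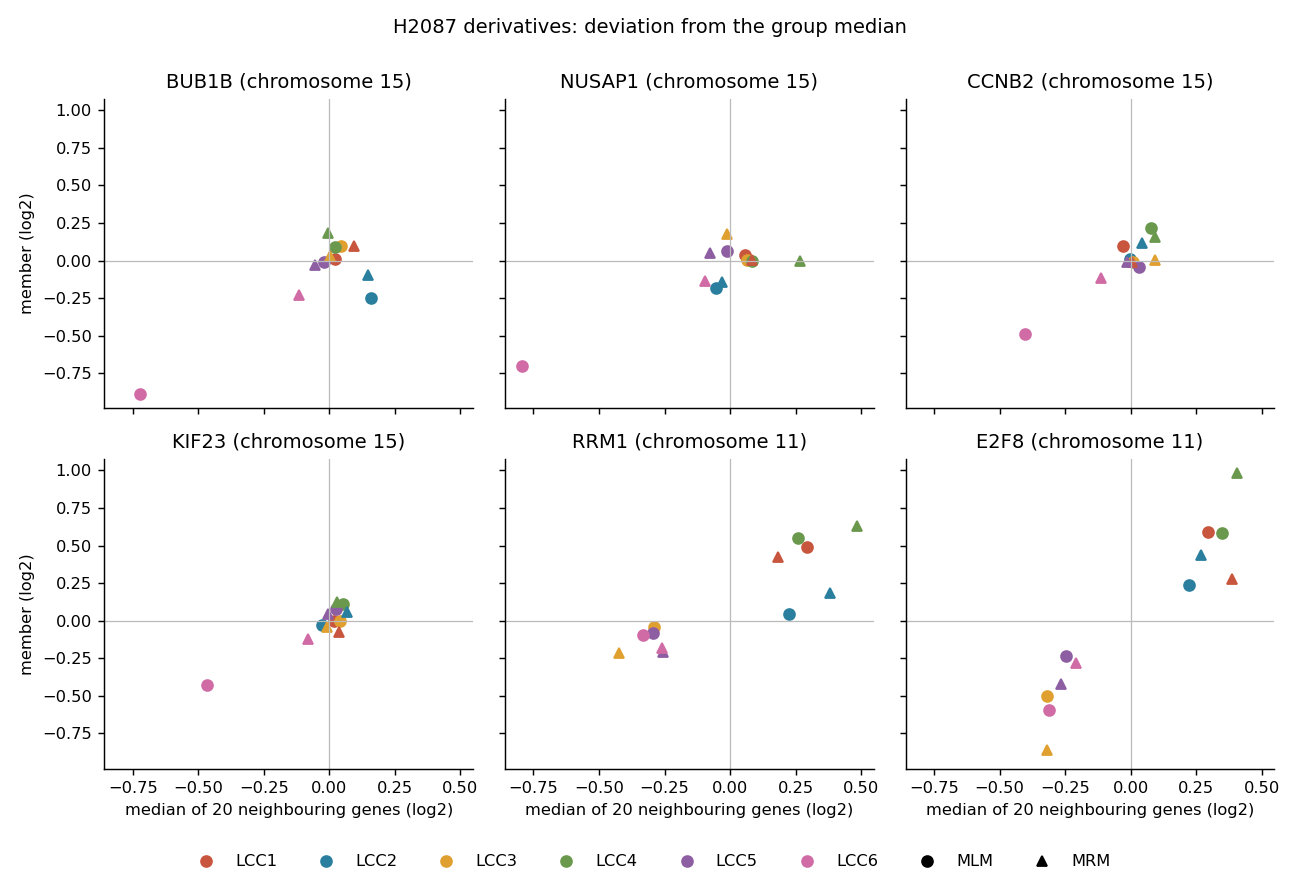
Deviation of a member from the median of the H2087 derivatives in the same medium (vertical axis, log2) against the median deviation of its 20 nearest genes on the chromosome (horizontal axis, log2), 1 point per derivative library and member. The chromosome 15 members of LCC6 in MLM lie at the lower left, BUB1B at -0.72 and -0.89.

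RRM1 and E2F8, a repressor of E2F targets, lie on chromosome 11 and split the H2087 derivatives in a similar way. RRM1 had 8037, 5899 and 8372 in LCC1, LCC2 and LCC4 in MLM, and 5554, 5404 and 5354 in LCC3, LCC5 and LCC6. E2F8 deviated from the derivatives' median by between -0.86 (LCC3 in MRM) and 0.98 (LCC4 in MRM). Neighbours of these genes were below the median in LCC3, LCC5 and LCC6 in both media and above it in LCC1, LCC2 and LCC4. Neither gene was called between derivatives and parental cells, at -0.58 (adjusted p = 0.131) for RRM1 and -0.38 (adjusted p = 0.578) for E2F8 in MRM.

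The tables of HCC1954 were scaled apart from those of H2087, and differences between the lines were not tested. In HCC1954 parental cells 20 of 52 members were lower in MLM and 1 was higher, and 19 of the 20 belonged to the G2/M class of 23 genes. Limma called 0 of the 25 G1/S members, and 1 of them was lower at an unadjusted p under 0.05. Over all genes 20.9% were lower and 25.5% higher, and the members' median was -0.33 against 0.02.

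BUB1, a kinase of the spindle checkpoint, fell most: 3196, 2796 and 3648 normalized counts in MLM against 6940, 7173 and 7508 in MRM, 2.25-fold lower (-1.17 ± 0.10, limma adjusted p = 0.000322). KIF23 (-1.01), CDC20 (-0.98), CENPE (-0.98) and TTK (-0.97) fell by nearly as much. PLK1, the polo-like mitotic kinase, had 2720, 2704 and 4042 in MLM against 5916, 5966 and 5454 in MRM (-0.90 ± 0.16, adjusted p = 0.0039). CCNB1, the cyclin that drives mitotic entry, had 3814, 3481 and 4578 against 7022, 6804 and 7209 (-0.83 ± 0.10, adjusted p = 0.00107). In these genes the MLM and MRM libraries did not overlap, and library 3 was the highest of the MLM libraries.

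MKI67 had 6642, 6139 and 11664 in MLM against 13110, 12389 and 13577 in MRM (-0.74 ± 0.23, adjusted p = 0.0335), and CDK1 2183, 2221 and 3926 against 4367, 4196 and 4651 (-0.72 ± 0.22, adjusted p = 0.0313). The 4 G2/M members not called were AURKB (-0.52), NUSAP1 (-0.46), CCNA2 (-0.45) and FOXM1 (-0.25). Outside the class CCND1 fell by 0.42 and CDK4 rose by 0.40; in the fit of all 4 groups CCND1 was not called (adjusted p = 0.348).

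For the G1/S members the outcome turned on parental library 3. RRM2 had 5939, 5068 and 18767 in MLM against 7492, 7144 and 7555 in MRM, and CDC6 3355, 3186 and 7044 against 4704, 4408 and 4767. Thus libraries 1 and 2 lay below all MRM libraries in both genes and library 3 above all of them. TYMS had 1089, 1138 and 2853 in MLM against 935, 842 and 953. Without library 3, 47 of 52 members were lower in MLM and 2 higher, with 31.7% of all genes lower and 37% higher. All 23 G2/M members were then lower (median -0.94), as were 22 of 25 G1/S members (median -0.46). CCNE2 and E2F1 changed sign, from 0.10 and 0.09 to -0.41 (adjusted p = 7.8e-05) and -0.19 (adjusted p = 0.0258).

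In the HCC1954 derivatives 26 of 52 members were lower in MLM than in MRM, against 5.52% of all genes. Limma, edgeR and DESeq2 each called 0 higher, and 0 were higher at an unadjusted p under 0.05, while limma called 6.36% of all genes higher. The members' median was -0.69 against 0.03. Of the G2/M class 19 of 23 fell, and of the G1/S class 7 of 25.

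KIF20A, a motor of the spindle midzone, had 1794, 1576, 1620 and 1695 in MLM (LCC1 libraries 1 and 2, then LCC2 libraries 1 and 2) and 3821, 4075, 4369 and 4368 in MRM (-1.31 ± 0.09, adjusted p = 0.000297). CDK1 had 2565, 2612, 1824 and 1978 against 4825, 5237, 4991 and 5264 (-1.19 ± 0.13, adjusted p = 0.00251). TOP2A, the topoisomerase that untangles chromosomes, had 15291, 14873, 11668 and 12169 against 30388, 25302, 28672 and 29494 (-1.08 ± 0.12, adjusted p = 0.00266). The media did not overlap in any of these genes, and in MLM the LCC1 libraries exceeded the LCC2 libraries for CDK1 and TOP2A.

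Falls were also called for CENPE (-1.16), BUB1 (-1.12), KIF11 (-1.02), TTK (-1.02), CCNA2 (-0.90) and MKI67 (-0.87). PLK1, a mitotic kinase, also fell, with 3300, 2850, 2618 and 2660 in MLM and 5315, 6312, 5533 and 5582 in MRM (limma adjusted p = 0.00217). The G2/M members not called were CDC20 (-0.84, adjusted p = 0.0527), NUSAP1 (-0.75), CDC25C (-0.59) and FOXM1 (-0.49). The G1/S members that fell were E2F8 (-1.03), RRM2 (-0.85), CCNE2 (-0.79), RRM1 (-0.77), PCNA (-0.73), CCNE1 (-0.70) and GINS1 (-0.62). PCNA had 5276, 5076, 4536 and 4851 in MLM and 6742, 8753, 8490 and 9006 in MRM. None of the 8 licensing genes was called, and CDC6 differed by -0.17 ± 0.48, CDT1 by -0.08 ± 0.33 and MCM2 by 0.02 ± 0.14.

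With each numbered derivative library as a block across the media, 35 members were lower, beside 12.8% of all genes lower and 15.7% higher. FOXM1 was then called (-0.49, limma adjusted p = 0.0145). This block pairs single libraries by number and does not take the derivative as the unit. The main counts were similar without the second LCC1 library in MRM, with 25 members lower against 6.09% of all genes (7.52% were higher). They rest on repeat libraries of 2 derivatives: when each derivative entered as its mean, limma called 0 members and 0 of all genes, and 26 members were lower at an unadjusted p under 0.05. Without any 1 of the 4 LCC2 libraries the count was 16.

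**Figure D4:**
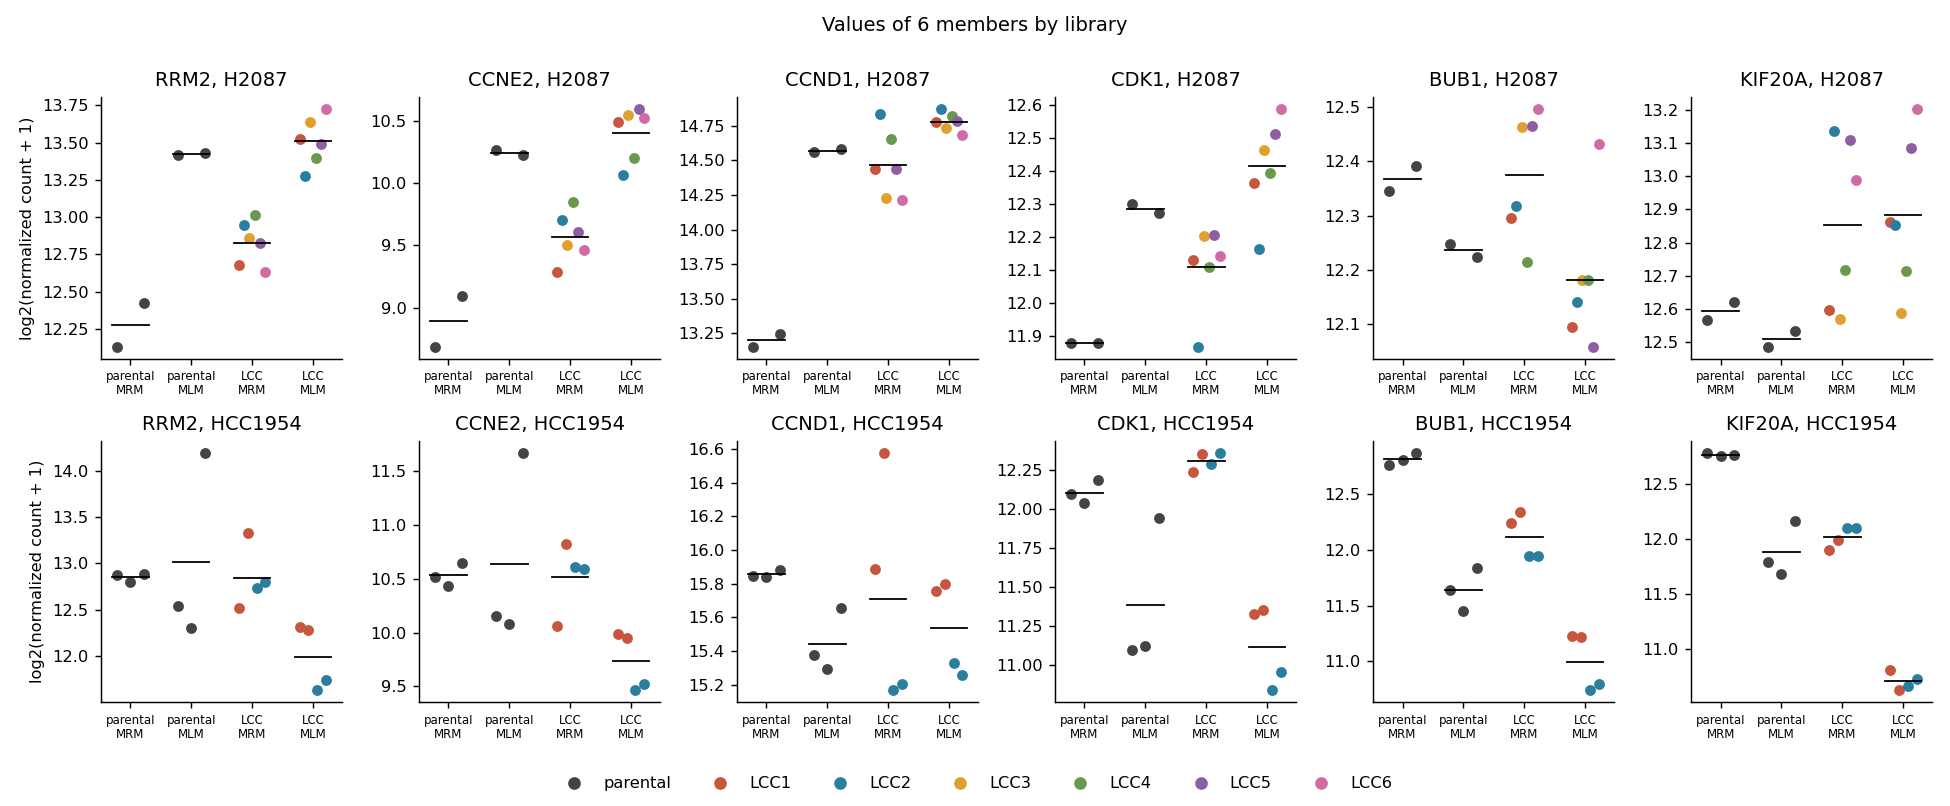
Normalized counts of selected members in each library of both lines by cell kind and medium, on a log axis, with 1 point per library. In HCC1954 CDK1 lies at 1824 to 3926 in MLM and 4196 to 5264 in MRM, whereas in H2087 parental cells it lies at 4946 and 5035 in MLM and 3762 and 3764 in MRM.

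The effect of the medium on HCC1954 was not shown to differ between parental cells and derivatives. In the interaction test limma called 0 of 52 members, edgeR called 0 and DESeq2 called 0; at an unadjusted p under 0.05 there were 3 members with limma, 5 with edgeR and 5 with DESeq2. Over all genes limma called 0.0649% positive and 0.0909% negative, so the test called little anywhere. The 3 members were KIF20A (-0.43, adjusted p = 0.333), CDK4 (-0.32, adjusted p = 0.44) and MCM3 (-0.43, adjusted p = 0.472). The 95% intervals ran from -0.82 to 0.56 for MKI67, from -0.55 to 0.37 for CCNB1, from -1.05 to 0.10 for CDK1, from -0.40 to 0.51 for BUB1 and from -1.47 to 1.39 for CDC6. Differences as large as those called in H2087 lie inside the interval for CDC6. Without parental library 3 in MLM and the second LCC1 library in MRM, limma called 0 members against 0.305% of all genes positive and 0.91% negative, 2 members had an unadjusted p under 0.05, and the members' median turned from -0.19 to 0.09.

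Between HCC1954 derivatives and parental cells in MLM, 6 members were lower and 1 was higher, fewer than the background of 18.9% lower and 17.6% higher. The members' median was -0.22 against -0.00. KIF20A had 3532, 3286 and 4584 in parental cells and 1576 to 1794 in derivatives (-1.17 ± 0.13, adjusted p = 0.000639), and every derivative library lay below every parental library. CDK4 had 7022, 7119 and 8800 against 4828, 4331, 4266 and 4548 (-0.76 ± 0.10, adjusted p = 0.00161). TYMS (-1.16), CDK2, the partner of cyclin E (-0.89), CENPE (-0.69) and BUB1 (-0.65) were the other members that fell. CCND3 was the member that rose, with 1618, 1552 and 2134 in parental cells against 2938, 2884, 2501 and 2533 (0.63 ± 0.13, adjusted p = 0.00942). Without parental library 3 the counts became 4 lower and 6 higher, beside 17.7% and 16.4% of all genes, and the median became 0.03. The 4 derivative libraries are repeats of 2 derivatives: with derivative means 0 members were higher and 2 lower, beside 8.01% and 9.17% of all genes. CCND3 (adjusted p = 0.0649), TYMS (0.117), CDK2 (0.0638), BUB1 (0.0692) and CENPE (0.0666) were then not called. MKI67 differed by -0.19 ± 0.25, with LCC2 at 5957 and 5575 near parental libraries 1 and 2, and LCC1 at 8057 and 8088 above them.

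In MRM, 10 members were higher and 10 lower in HCC1954 derivatives, close to the background of 19.2% and 19.3%. The G1/S gene E2F1 had 1407, 1358 and 1216 in parental cells and 2029, 2828, 2556 and 2443 in derivatives (0.89 ± 0.13, adjusted p = 0.0017). MCM3, a helicase subunit, had 5950, 5653 and 5737 against 9703, 10634, 11094 and 11206 (0.88 ± 0.08, adjusted p = 0.000315). The groups did not overlap in either gene. Other members that rose were CCND3 (0.71), CCNA2 (0.69), TPX2 (0.68), AURKA (0.54), GINS1 (0.50), BIRC5 (0.40), MCM4 (0.38) and MCM2 (0.35).

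CDK2 fell in MRM with 3881, 3977 and 3990 in parental cells against 2595, 2235, 1945 and 2079 in derivatives (-0.84 ± 0.11, adjusted p = 0.00114). The other members that fell were KIF20A (-0.74), BUB1 (-0.70), CDC20 (-0.59), TYMS (-0.54), CENPE (-0.51), MCM7 (-0.50), CDK4 (-0.44), CCNB2 (-0.32) and TTK (-0.26). In the fit of all 4 groups MCM2 (adjusted p = 0.194), MCM4 (0.127), MCM7 (0.112), TYMS (0.124), AURKA (0.0767) and BIRC5 (0.0608) were not called, and with derivative means MCM2 (0.068) and MCM7 (0.0556) were not. Fibroblast markers summed to 779 to 1113 in derivatives and 466 to 575 in parental cells in MRM, and to 785 to 1117 and 529 to 641 in MLM. The 1 marker tested was higher in derivatives in both media, and the part of these markers was not tested. Without parental library 1, 2 or 3 in MRM the counts were 5 higher and 4 or 5 lower. Without the second LCC1 library 12 members were higher and 20 lower, beside 24.2% and 24.2% of all genes. Equal library totals moved the median of all genes by 0.13 in this comparison and by 0.11 in MLM, and under that scaling the members' median in MRM turned from -0.02 to 0.11, with 16 members higher, beside 24.7% of all genes higher and 13.9% lower.

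**Figure D5:**
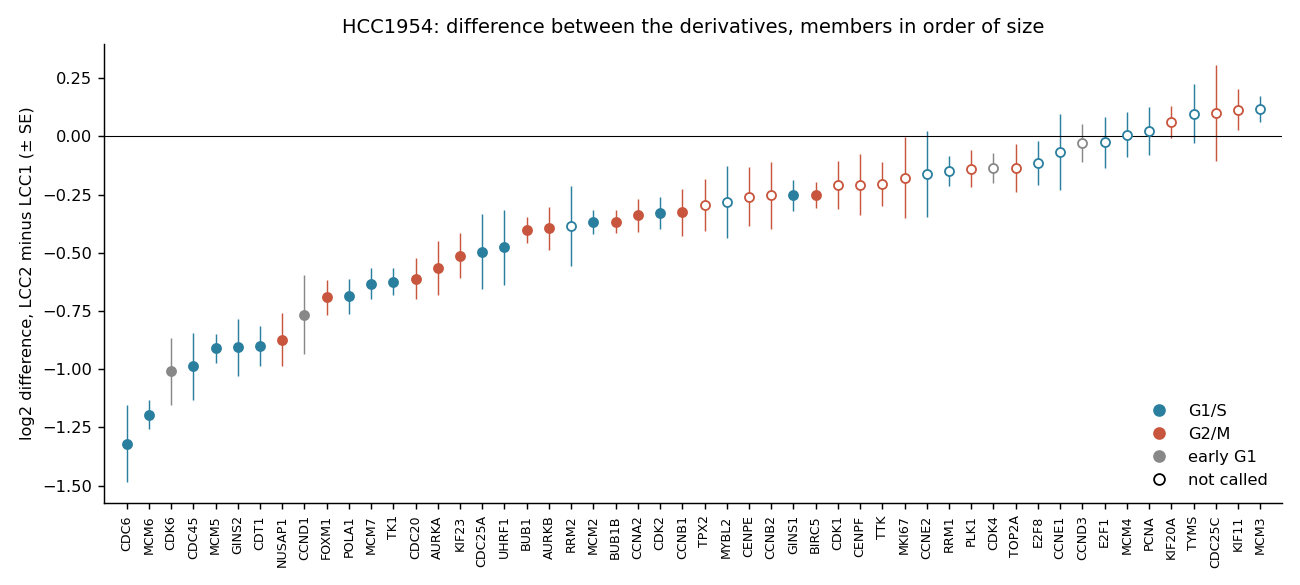
Difference between the HCC1954 derivatives over both media (log2, LCC2 minus LCC1, with its standard error) for each tested member, in order of size and coloured by class. Filled points are called members, and all of them lie below 0. The median over the tested members is -0.31.

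The 2 HCC1954 derivatives were compared with each other over both media. Of 52 members 27 were lower in LCC2 than in LCC1, with 23.4% of all genes lower, and the members' median was -0.31 against 0.00. Limma, edgeR and DESeq2 each called 0 higher, and 0 were higher at an unadjusted p under 0.05, while limma called 22.4% of all genes higher. By role, 6 of 8 licensing genes, 5 of 6 replication fork genes and 6 of 8 mitotic kinases and checkpoint genes were lower, as were 2 of 9 spindle genes and 2 of 5 genes of the CDK1 group; differences between roles were not tested.

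MCM6 had 5126 and 4957 in LCC1 and 2146 and 2212 in LCC2 in MLM, and 6270 and 7202 against 2855 and 3080 in MRM (-1.19 ± 0.06, adjusted p = 3.51e-05). CDC6 had 7510 and 7813 against 2341 and 2569 in MLM, and 5631 and 8436 against 3396 and 3514 in MRM (-1.32 ± 0.16, adjusted p = 0.000607). The derivatives did not overlap in either medium in these genes. When LCC1 and LCC2 were pooled against parental cells in MLM, CDC6 gave 0.04 ± 0.53.

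CDK6 (-1.01), CDC45 (-0.99), MCM5 (-0.91), GINS2 (-0.91), CDT1 (-0.90), NUSAP1 (-0.87), CCND1 (-0.77) and FOXM1 (-0.69) were also lower in LCC2. FOXM1 had 3786 and 3663 against 2022 and 2159 in MLM, and 4520 and 4983 against 3273 and 3213 in MRM. Not every S phase gene took part: PCNA differed by 0.02 ± 0.10, MCM3 by 0.12 ± 0.06, E2F1 by -0.03 ± 0.11 and MCM4 by 0.01 ± 0.10. MKI67 (-0.18 ± 0.18) and CDK1 (-0.21 ± 0.10) were not called. Without the second LCC1 library in MRM 28 members were lower and 1 higher, beside 28.9% and 26.7% of all genes. Equal library totals moved the median of all genes by 0.14 in this comparison, to the side of higher values in LCC2, and the members' median was then -0.17.

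The promoter strings printed above can be set beside these differences as a description, without a test. In H2087 parental cells 12 of 14 G1/S members with an E2F string rose in MLM (median 0.51) and 3 of 6 without one (median 0.24). The share of all genes that rose there was 38.2%. For the LCC2 and LCC1 derivatives of HCC1954, 10 of 14 G1/S members with an E2F string were lower in LCC2 (median -0.49). Without one 2 of 6 were lower (median -0.33), beside 23.4% of all genes. In HCC1954 derivatives between media the order was the other way. There 2 of 14 with an E2F string fell in MLM (median -0.25) and 3 of 6 without one (median -0.57), beside 5.52% of all genes. In HCC1954 parental cells 10 of 11 G2/M members with a CHR fell in MLM (median -0.73) and 5 of 7 without one (median -0.83), beside 20.9%. Its derivatives gave 9 of 11 (median -0.87) and 6 of 7 (median -0.93), beside 5.52%. In this line members without a CHR thus fell by as much. In H2087 parental cells the 2 sets differed: with a CHR 8 of 11 rose and 0 fell (median 0.31). Without one 1 of 7 rose and 3 fell (median -0.08), beside 38.2% and 34.4% of all genes.

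Other genes of the same pathways were counted from lists that hold none of the 53 members. Among 44 other G2/M genes, 30 fell and none rose in MLM in HCC1954 parental cells (median -0.60), and 32 fell and none rose in its derivatives (median -0.84). NUF2, a kinetochore protein, was at -1.25 in parental cells, and DLGAP5, a spindle protein, at -1.30 in derivatives. Among 44 other G1/S genes, 8 (18.2%) fell in HCC1954 parental cells (median -0.36), fewer than the 20.9% of all genes, and 13 (29.5%, beside 5.52%) in its derivatives (median -0.50), with DBF4, the activator of the CDC7 kinase, at -0.93 and -1.05. In H2087 parental cells 33 of 43 other G1/S genes rose in MLM and 1 fell (median 0.32), beside 38.2% and 34.4% of all genes, with GINS4, of the helicase complex, at 1.61, while 17 of 44 other G2/M genes rose (38.6%) and 11 fell (25%), near or under those shares (median 0.03). The list of 10 replication-dependent histones moved otherwise in HCC1954. In its parental cells 4 of 8 tested rose in MLM and 1 fell (median 0.50), beside 25.5% and 20.9% of all genes. In its derivatives 3 of 7 tested rose and 0 fell (median 0.66), beside 6.36% and 5.52%. In H2087 parental cells 3 of 6 tested histones rose and 1 fell (median 0.78).

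GINS4 also had a negative interaction in H2087, at -1.36, and 7 of 43 other G1/S genes in all were negative there with none positive, beside 6.64% and 4.08% of all genes. Of 10 inhibitors of cyclin-dependent kinases and retinoblastoma genes, 5 rose and 5 fell in MLM in H2087 parental cells, beside 38.2% and 34.4% of all genes. In HCC1954 parental cells 3 of the 10 rose and 0 fell, beside 25.5% and 20.9% of all genes. In H2087 derivatives against parental cells in MLM 4 of the 10 were higher, beside 4.94% of all genes, among them CDKN2B (p15, 1.21) and CDKN2D (p19, 0.57), and none was lower. In MRM 0 were higher and 1 lower, beside 8.76% and 5.83% of all genes. In HCC1954 derivatives in MLM 2 were higher and 3 lower, beside 17.6% and 18.9%. In MRM 2 were higher and 0 lower there, beside 19.2% and 19.3%. CDKN1A (p21) rose in MLM in parental cells of both lines, by 1.20 ± 0.08 in H2087 and by 1.46 ± 0.12 in HCC1954. CDKN2B rose by 2.00 ± 0.25 in MLM in HCC1954 parental cells. So p21 was higher in MLM in H2087 parental cells together with CCND1 and CDC6, and in HCC1954 parental cells together with lower G2/M members. RBL2 (p130), a retinoblastoma relative found on E2F targets in resting cells, fell by 0.99 in H2087 parental cells in MLM, and its interaction was 0.89 ± 0.11.

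CCND2, the third D cyclin, was not detected at a level that could be tested: it reached at most 3.42 normalized counts in any of the 30 libraries. The remaining members were well measured, with 51 of 53 at a mean of at least 100 in both lines.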

How the data were processed

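RNA sequencing of 30 libraries was used, and chromatin libraries were not analysed here. Per the submitters' processing notes, reads were handled with Bowtie2 2.2.4, HTSeq 0.6.1p1 and DESeq2 1.8.1 on build hg19 (GRCh37). The deposited values are the authors' normalized counts, a signal in which each read count is divided by the size factor of its library; 1 set of factors covers both media of a line. Multiplying back gave whole reads for 100% of values within 0.01. No column lacked a sample.

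Values were analysed as log2(value + 1), so folds of low genes are understated. Genes with a mean of at least 10 were tested with limma 3.58.1 (trend) in R 4.3.3, with the libraries of the compared groups and Benjamini-Hochberg adjustment over all genes; an adjusted p under 0.05 is a call. Alternatives were edgeR 4.0.16 and DESeq2 1.42.0 on the recovered reads, other filters and pseudocounts, equal library totals, a replicate block, 1 fit of 4 groups, derivative means and left-out libraries. Leaving out both HCC1954 libraries that stood apart was chosen after seeing the data. The scripts were tested on simulated data.

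The members and lists were chosen with earlier results of these data known. Genes are named where a member is called or is a usual marker of its phase, and from other lists where called with the largest difference. Neighbours are the 10 nearest tested genes on each side in RefSeq order (GRCh38.p14).

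Pairing was checked by correlating deviations from group means between media. Same-named H2087 derivatives gave 0.415 to 0.773, each best with its own name, and same-numbered HCC1954 derivative libraries 0.534 to 0.758, so derivatives pair the media. The second LCC1 library of HCC1954 in MLM matched the first LCC1 library in MRM better (0.637) than its own number (0.534). HCC1954 parental numbers gave -0.094, 0.264 and 0.123 and share only a number. H2087 parental numbers gave 0.139, and replicate blocks that hold parental libraries pair these by number.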

Additional observations from a re-analysis of the deposited data

Results flagged for a closer look

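Within groups of 6 H2087 or 4 HCC1954 derivative libraries, 60 sets of values were checked for a library whose gap to its nearest neighbour was large for the range of the group (Dixon's 95% value), and 9 were found; chance alone gives about 1 in 20. In H2087 in MLM, LCC2 was low in the mean over all 53 members (11.59 on the log2 scale), in the G1/S mean (11.26) and in CDC6 (10.93). Also in MLM, LCC1 was high in E2F1 (11.15) and LCC6 was low in BUB1B (11). In H2087 in MRM, LCC4 was high in the mean over all 53 members (11.73), LCC1 was low in the G2/M mean (12.11) and LCC2 was low in CDK1 (11.87). In HCC1954 in MRM, the second LCC1 library was high in CCNB1 (13.15).

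For 5 members of H2087 the interaction test of limma called a difference between the media in the gap between derivatives and parental cells. The values, MLM minus MRM on the log2 scale, were -1.06 for CCND1, -0.79 for CDC6, -0.55 for MCM4, -0.48 for CDC20 and 0.64 for CDC25C. Of 52 members 7.69% were negative and 1.92% positive, near the 6.64% and 4.08% of all genes. MCM4 and CDC25C were not called without the low filter, and MCM4 and CDC20 not without LCC5 and LCC6.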

How the results depend on the processing

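Over counts of called members, class means and promoter counts, 524 alternative values stayed near the main one and 108 moved; for single members 2908 calls were unchanged, 238 were lost, 47 were gained and 2 reversed, CCNE2 (-0.41) and E2F1 (-0.19) in HCC1954 parental cells between media without parental library 3 in MLM. The cause of these moves was not tested. In H2087 derivatives against parental cells in MLM (1 higher, 0 lower), 0 were higher without the low filter, under equal library totals (2 lower) and with edgeR (1 lower), 7 with DESeq2 (2 lower), 3 with all 4 groups in 1 fit and 4 without LCC5 and LCC6. In MRM (14 higher) DESeq2 gave 23. Between media, H2087 parental cells (6 lower) gave 3 lower under equal totals and 1 with all 4 groups in 1 fit; H2087 derivatives (13 higher, 0 lower) gave 25 higher under equal totals, 2 lower with DESeq2, 2 lower with 4 groups, and 5 higher without LCC5 and LCC6. The 1 positive H2087 interaction became 0 without the filter and with edgeR.

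For HCC1954 derivatives against parental cells in MLM (1 higher, 6 lower), equal totals gave 4 higher, 4 groups in 1 fit 4 and 10, and derivative means 0 and 2; in MRM (10 and 10), equal totals gave 16 higher and 4 groups 6 higher. HCC1954 parental cells between media gave 2 higher with DESeq2, its derivatives 0 lower with derivative means (26 with single libraries), and LCC2 against LCC1 gave 3 higher under equal totals. In a window of 150 bases before the start, 7 in place of 11 G2/M promoters held a CHR.

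With a replicate block, H2087 derivatives between media gave 18 and 4, the H2087 interaction 2 and 8, H2087 parental cells 35 and 6, HCC1954 parental cells 1 and 22, HCC1954 derivatives between media 0 and 35, and the HCC1954 interaction 0 and 0. Numbers of HCC1954 parental and derivative libraries do not pair them within a medium; that block gave 3 and 3 in MLM and 5 and 2 in MRM.

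Under equal totals the mean difference over all 53 members in H2087 became 0.15 for derivatives in MRM, 0.39 for parental cells between media and 0.24 for derivatives between media; the G2/M mean became 0.11 and 0.13 for derivatives in MLM and MRM, and 0.17 and 0.14 for parental cells and derivatives between media. In HCC1954 the G2/M mean of derivatives in MRM turned from -0.09 to 0.035. Medians over members in place of means gave, in H2087, 0.39 and 0.044 over all members (derivatives in MRM; derivatives between media), 0.14, 0.092 and 0.033 for G1/S (derivatives in MRM; parental cells and derivatives between media) and 0.42 and 0.25 for G2/M (derivatives in MRM; parental cells between media), and -0.25 for G1/S in HCC1954 derivatives in MRM.

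Leaving out each library in turn gave these ranges of counts, higher then lower. H2087 derivatives against parental cells ranged from 0 to 8 and 0 to 1 in MLM, and from 1 to 14 and 0 to 1 in MRM. Between media H2087 parental cells ranged from 28 to 38 and 2 to 10, its derivatives from 11 to 22 and 0 to 2, and the interaction from 0 to 1 and 1 to 5. HCC1954 derivatives against parental cells ranged from 1 to 6 and 4 to 6 in MLM, and from 5 to 12 and 4 to 20 in MRM. Between media HCC1954 parental cells ranged from 0 to 2 and 12 to 47, its derivatives stayed at 0 and ranged from 16 to 27, and the interaction stayed at 0 and 0; LCC2 against LCC1 ranged from 0 to 1 and 24 to 40. The mean differences over all 53 members, G1/S and G2/M members had these ranges. In H2087 they were, for derivatives minus parental cells in MLM 0.05 to 0.11, -0.03 to 0.05 and 0.16 to 0.19, and for derivatives minus parental cells in MRM 0.19 to 0.30, 0.16 to 0.38 and 0.21 to 0.24. For H2087 parental cells between media they were 0.26 to 0.38, 0.39 to 0.61 and 0.08 to 0.11, and for derivatives between media 0.13 to 0.18, 0.21 to 0.29 and 0.03 to 0.07. In HCC1954 they were, for derivatives minus parental cells in MLM -0.35 to 0.04, -0.39 to 0.12 and -0.39 to -0.08, and for derivatives minus parental cells in MRM -0.06 to 0.07, -0.04 to 0.14 and -0.13 to -0.07. For HCC1954 parental cells between media they were -0.62 to -0.23, -0.44 to 0.08 and -0.94 to -0.63, and for derivatives between media -0.69 to -0.51, -0.49 to -0.27 and -1.02 to -0.83. CCND2 had a mean under 10 in both lines and was not tested in the main comparisons. H2087 libraries in MRM were the shallowest, with 12131848 to 20847987 reads.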
